A study of Mus musculus with 46 samples.

Results

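Untreated adult mouse testis was described here from the 8 arrays of control mice among the 46 arrays of a study of acrylamide in drinking water. The members were all arrays whose title names them as controls, so no measured value chose them. The control mice were male Swiss mice given water with 0 µg/ml acrylamide, and the testis RNA of each mouse was hybridised to its own Illumina mouse bead array. There were 3 control mice at 1 month (3 to 6 months old), 3 at 6 months (11 to 12 months old) and 2 at 12 months (16 to 17 months old). The other 38 arrays were from mice of the same strain and sex that drank 0.001, 0.01, 0.1, 1 or 10 µg/ml acrylamide for the same times. No mouse carried a transgene or deletion per the labels, and each RNA came from testis tissue, so germ cells and somatic cells were measured together. In such a mixture fewer cells of a type and less RNA per cell cannot be told apart. Mice are called by their time and replicate number, which only numbers them.

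The testis makes sperm in seminiferous tubules, where spermatogonia divide, spermatocytes go through meiosis and round spermatids reshape into elongating spermatids with a condensed nucleus and a tail. Sertoli cells nourish these germ cells inside the tubule, peritubular myoid cells surround it, and Leydig cells between the tubules make testosterone. Late germ cells use many proteins of their own, such as protamines in place of histones and separate isoforms of glycolytic enzymes. Much of their mRNA is made in round spermatids and stored, because transcription stops as the nucleus condenses.

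Each value was a probe's processed signal on the log2 scale, and the level of a gene was the mean of its brightest probe over the 8 control arrays. The percentile of a level is its rank among all 25697 probes, with 100 the brightest. Probes differ in how well they bind, so a rank is that of a probe's signal and not of the number of transcripts. The array held 16593 named genes. Levels ran from 7.63 to 14.32 with a median of 7.82, a 75th percentile of 8.50 and a 95th of 10.98, so most probes lay close to the background. A dim limit was set at 7.76, under which 40% of the probes fell by their mean over all 46 arrays. By the brightest probe 10649 of 16593 genes, or 64.2%, lay above it. Differences between dim probes were compressed. On 1-month mice 2 and 3, a unit of log2 intensity between 7 and 8 was worth 0.40 and 0.41 units of processed value, and between 12 and 13 it was worth 1.11 and 1.04.

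Arrays of the same time correlated at 0.9923 to 0.9955 over all probes (7 pairs), and those of 1 and 6 months at 0.9911 to 0.9943 (9 pairs). The 12-month arrays stood apart, with 0.9666 to 0.975 in their 12 pairs with the other controls. Probes are not independent replicates, so these are descriptions of the arrays. Age, length of the drinking period and the arrays' numbering all changed with time, so they cannot be told apart, and spread between mice was therefore measured within a time. Levels are over all 8 arrays unless said otherwise, and those that moved most without the 12-month arrays are also given without them.

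Germ cell genes of the sperm tail, chaperones and energy supply stood at the top of the ranking beside ribosomal and other genes. Tulp2, a tubby-like gene of the testis, was the brightest at 14.32 ± 0.09 (pooled SD within times, n = 8). Gsg1, a germ cell gene whose product binds the spermatid poly(A) polymerase, followed at 14.27 ± 0.19, and Tcte3, a dynein light chain, at 14.26 ± 0.11. Hspa2, the meiotic member of the HSP70 chaperones, was at 14.26 ± 0.11 and Odf1, a main protein of the outer dense fibres of the tail, at 14.24 ± 0.09. Of the 30 brightest genes, 10 belonged to the germ cell lists used here and 3 to the cytosolic ribosome (Rpl41, Rps20 and Rplp1). Of the 16593 genes on the array, the 7 germ cell lists held 7 to 28 each, with overlaps, and the ribosome list 62. The share of all genes in the germ cell lists was not counted. The lists were written with earlier results of these data known, so the counts are a description. The germ cell members also held Smcp of the mitochondrial capsule of sperm (14.03), Spata19 of the sperm mitochondria (14.07), the lactate dehydrogenase Ldhc (14.00), the phosphoglycerate kinase Pgk2 (13.90), the cytochrome oxidase subunit Cox8c (13.85) and the protamine Prm1 (13.80). Outside those lists stood Dnaaf1, an assembly factor of dynein arms (14.17), Rsph1 of the radial spoke head (14.11), Cabs1, a calcium-binding protein of spermatids (14.08), Fabp9, a fatty acid binding protein of the sperm head (14.02), and Gtsf1l (13.80).

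The remaining names among the 30 were Mt1, a metallothionein (14.16), Ubb-ps, annotated as a ubiquitin pseudogene (14.03), Eef1g, a translation elongation factor subunit (14.01), Gstm5, a glutathione S-transferase (14.01), Morf4l1, a chromatin protein (13.94), H2al1e, an X-linked histone variant (13.94), Sh3d21 (13.93), Pgp, a phosphatase of small metabolites (13.91), Znrf4 (13.87), the nucleotidase Nt5c1b (13.80) and Ppp1r11, an inhibitor of a protein phosphatase (13.80). Probes of Ubb-ps, H2al1e, Gstm5 and the ribosomal genes may share signal with near-identical family members, so their identity is uncertain. The order within this group was not resolved. The 30 levels spanned 0.53, each gap between neighbours was at most 0.07, and all 29 gaps were smaller than the pooled SD of either neighbour. The highest value was 14.45 on every array, the same on all because of the normalization.

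**Figure D1:**
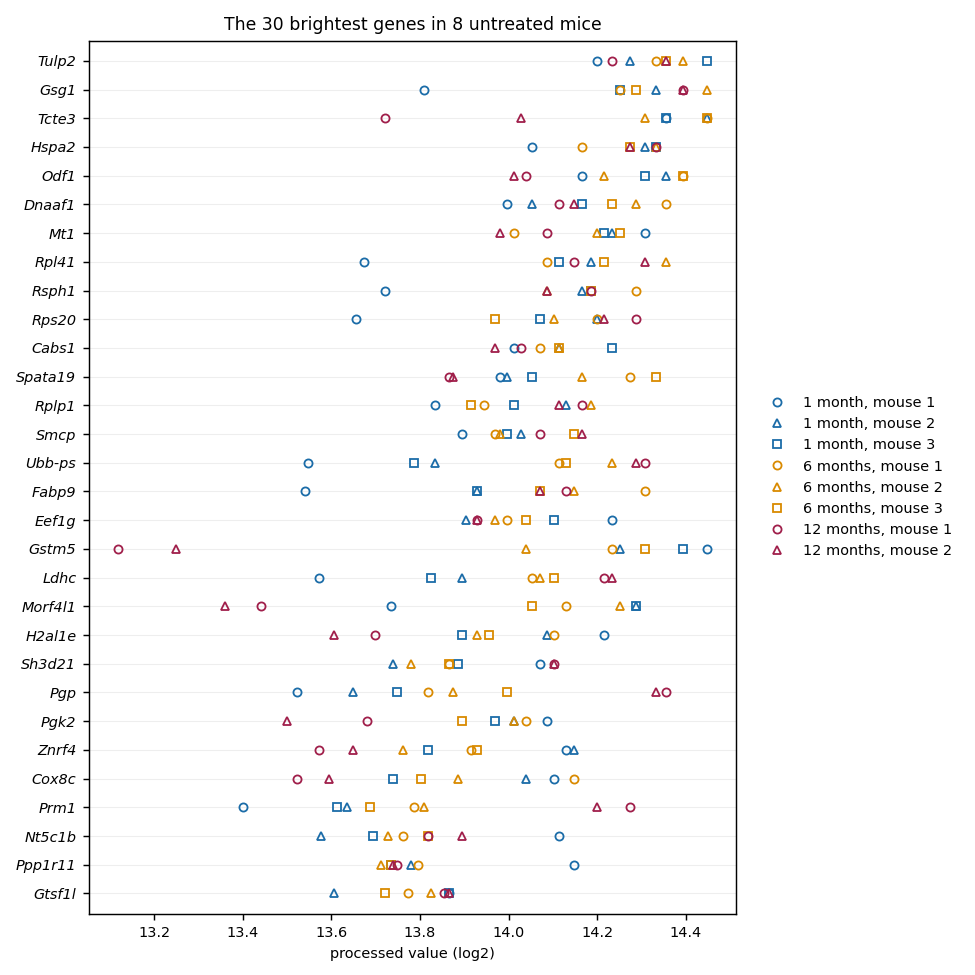
Processed log2 values (horizontal axis) of the 30 brightest genes, 1 point for each of the 8 control mice, coloured by time. Most genes stay within less than 1 unit, while Gstm5 and Morf4l1 are at 13.12 to 13.44 in the 12-month mice and 13.73 to 14.45 in the others.

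Without the 12-month arrays, 24 of the 30 genes stayed among the 30 brightest. Gstm5 was at 14.45, 14.25 and 14.39 in the 1-month mice, 14.23, 14.04 and 14.31 in the 6-month mice and 13.12 and 13.25 in the 12-month mice. Its level was 14.28 without the 12-month arrays. Morf4l1 was at 14.12 without them. Prm1 was at 13.40, 13.64 and 13.61 in the 1-month mice, 13.79, 13.81 and 13.69 in the 6-month mice and 14.27 and 14.20 in the 12-month mice. Its level was 13.66 without those arrays, and the 12-month mice lay above the others for Prm1 and below them for Gstm5. Pgp, like Prm1, was highest in both 12-month mice (14.36 and 14.33) and was at 13.77 without them. Tcte3 was at 13.72 and 14.03 in the 12-month mice and at 14.31 to 14.45 in the other 6, with a level of 14.39 without the 12-month arrays.

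A second probe of the same gene often gave another level. Of the 30 brightest genes, 9 had other probes on the array. Tcte3 had a probe at 7.79, near the dim limit, Dnaaf1 had one at 8.37, Morf4l1 one at 8.94 and Gsg1 others at 9.18 and 13.52. Other probes of Ldhc (13.65 and 13.90), Gtsf1l (13.68) and Ubb-ps (13.74) lay close to the brightest one. Which transcripts each probe reads was not examined.

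The promoters of these genes differed in their content of CG dinucleotides, the sites of DNA methylation in mammals. RefSeq promoters (build GRCm38.p6, 250 bases before to 50 after a start) were matched by gene identifier for 13335 of the 16593 genes, and for 21 of the 30 brightest. The 3 shown here are those of germ cell genes from this group, to let a promoter without CG be set beside one rich in it. Capitals mark CG.
Smcp, chr3:92589024-92589323, minus strand: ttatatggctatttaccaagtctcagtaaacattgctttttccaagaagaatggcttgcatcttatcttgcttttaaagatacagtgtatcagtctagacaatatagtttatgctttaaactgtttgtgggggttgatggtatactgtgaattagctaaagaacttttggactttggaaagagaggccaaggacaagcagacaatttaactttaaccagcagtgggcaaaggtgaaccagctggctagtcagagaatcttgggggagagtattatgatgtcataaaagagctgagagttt
Prm1, chr16:10796774-10797073, minus strand: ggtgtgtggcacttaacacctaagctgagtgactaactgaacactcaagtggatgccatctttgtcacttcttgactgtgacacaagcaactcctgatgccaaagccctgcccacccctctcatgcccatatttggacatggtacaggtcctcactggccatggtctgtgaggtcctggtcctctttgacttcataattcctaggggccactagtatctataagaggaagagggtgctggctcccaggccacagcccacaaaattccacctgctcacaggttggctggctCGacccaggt
Hspa2, chr12:76404120-76404419, plus strand: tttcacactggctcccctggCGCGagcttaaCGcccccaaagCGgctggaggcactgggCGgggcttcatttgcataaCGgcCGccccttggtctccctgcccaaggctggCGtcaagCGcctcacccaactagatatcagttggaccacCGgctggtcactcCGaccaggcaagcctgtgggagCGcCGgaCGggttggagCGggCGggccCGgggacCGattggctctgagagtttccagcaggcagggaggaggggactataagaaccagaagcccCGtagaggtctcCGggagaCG

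Smcp had 0 CG in these 300 bases, Prm1 had 1 and Hspa2 had 21, at levels of 14.03, 13.80 and 14.26. Among the 21 brightest genes with a promoter, 9 had fewer than 5 CG in every promoter, among them Tulp2, Cabs1, Spata19, Pgk2, H2al1e, Nt5c1b and Gtsf1l, and 5 had a promoter with at least 20, which were Hspa2, Mt1, Tcte3, Sh3d21 and Pgp. Counted by promoter, 14 of the 28 of these genes had fewer than 5 CG, against 24.45% of all matched promoters. The share by gene was not counted over all genes. The share of promoters was 24.66% (54 of 219) for genes in the brightest 1% of probes and 15.96% in the next 4%. It was 14.9% in the other genes above the dim limit and 43.49% in genes below it. By list, fewer than 5 CG were found in 13 of 35 promoters of tail genes, 10 of 26 of round spermatid genes and 7 of 15 of germ cell isoenzymes, against 3 of 20 of spermatocyte genes, 0 of 20 of meiotic recombination and synapsis genes and 0 of 63 of ribosomal genes. Fewer than 5 CG were also found in 9 of 17 promoters of Leydig cell genes, 7 of 12 of macrophage genes, 12 of 12 of kallikreins and 14 of 19 of epididymis genes. Some genes have several promoters that overlap, so promoters of a gene are not independent. The letters TGACGTCA, the full cAMP response element, which read the same on both strands, were in 2.359% of all promoters and in 3.196% (7 of 219) of those of the brightest 1%. Of the 28 promoters of the 30 brightest genes, that of Znrf4 alone held them.

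Lists of later germ cell stages were brighter than those of earlier ones, but the order of the round spermatid and chromatin lists was not settled. The median percentile was 53.48 for spermatogonia (19 genes), 73.41 for meiotic recombination and synapsis (18), 89.93 for spermatocytes (21), 97.1 for round spermatids (28), 96.78 for the chromatin of elongating spermatids (7) and 99.05 for their tail (23). Over all genes it was 54.4. Above the dim limit lay 16 of 19 spermatogonial, 14 of 18 meiotic, 19 of 21 spermatocyte, 26 of 28 round spermatid, 7 of 7 chromatin and 21 of 23 tail genes, with 64.2% of all genes above it. Among the brightest 5% of probes, which held 6.47% of all genes, were 0 spermatogonial, 2 meiotic, 9 spermatocyte, 20 round spermatid, 6 chromatin and 18 tail genes. The chromatin list lay above the round spermatid list without the 12-month arrays (97.23 and 97.11), by the median over the probes of a gene (96.78 and 96.53) and on log2 intensities of 2 mice (97.54 and 97.23). The median over probes put spermatocytes at 74.81 and tail genes at 98.03.

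**Figure D2:**
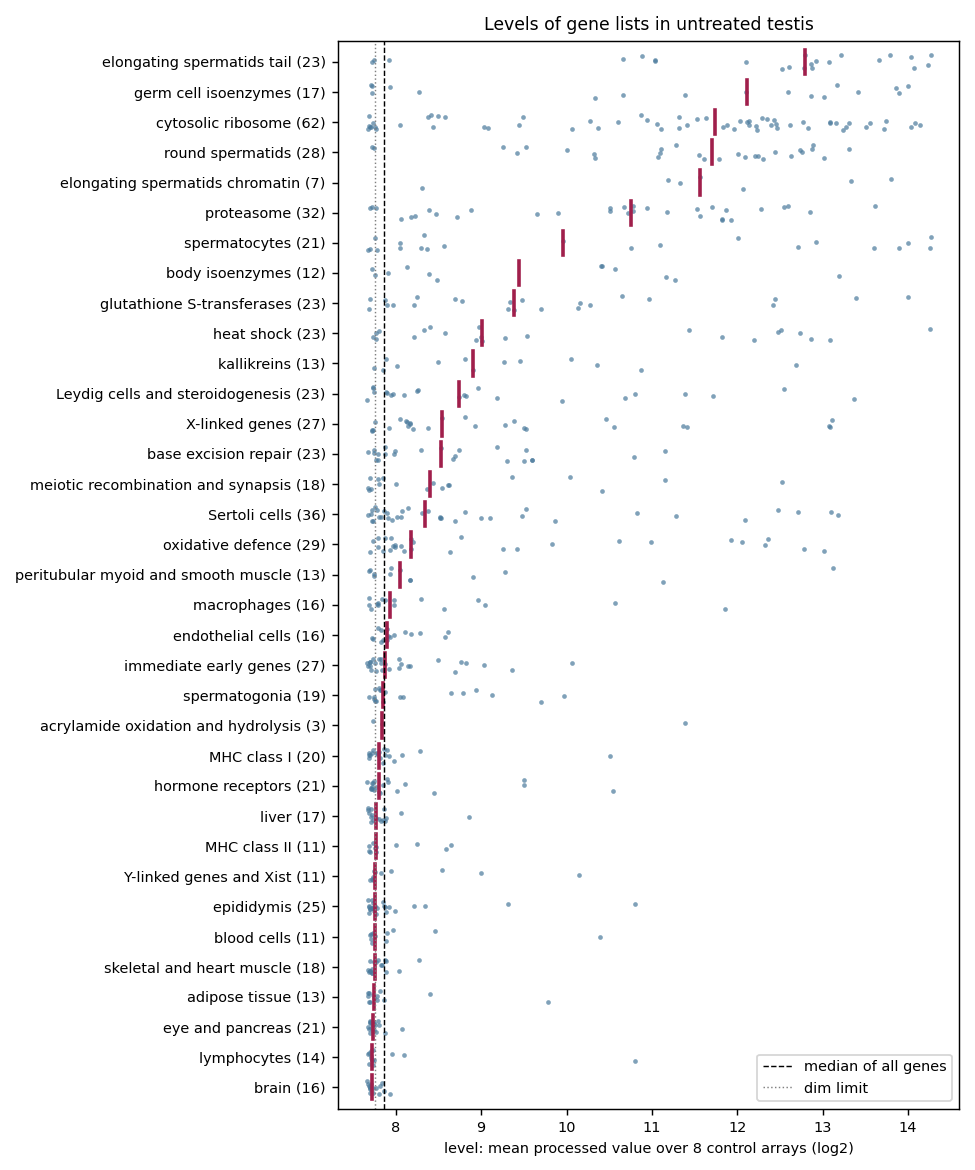
Levels (log2, horizontal axis) of the members of the 35 gene lists, 1 point for each gene with the number of genes in brackets, the median of each list as a red bar, the median of all genes as a dashed line and the dim limit as a dotted line. Lists of late germ cells, ribosome and proteasome have medians from 10.75 to 12.79, and those of brain, lymphocytes, eye and pancreas lie at the dim limit.

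In spermatogonia the RNA-binding proteins Dazl and Ddx4, which later germ cells also carry, were at 9.97 and 9.70, followed by Id4 of stem-like spermatogonia (9.12), the DNA methyltransferase Dnmt3b (8.94), the transcription factor Sohlh1 (8.79) and Uchl1 (8.65). The receptors Gfra1 and Ret were at 7.74 each, under the dim limit. Among meiotic genes, the cohesin subunit Stag3 was highest at 12.53, followed by Spo11, which cuts DNA to begin recombination (11.16), the cohesins Smc1b (10.41) and Rec8 (10.04), Syce2 of the synaptonemal complex (9.36) and Msh4 (8.63). Sycp3, another protein of that complex, was at 7.70 and the recombinase Dmc1 at 7.68, both at background in all 8 mice. Probes of some ribosomal genes that every cell uses were also at background, such as Rpl17 and Rpl14 (7.68 and 7.69; named after their values were seen), so a dim probe does not show that a transcript was absent. The other listed genes given here as lying at background were also picked by their values.

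Among round spermatid genes the kinase Tssk6 was at 13.31, Pgam2, a phosphoglycerate mutase, at 13.01, Spag6l of the axoneme at 12.88, the calcium channel subunit Catsper2 at 12.88, Spata3 at 12.76 and the chaperone Hspa1l at 12.74. In the chromatin list Prm1 (13.80) was followed by Tnp1, a transition protein (13.33), the linker histone H1f7 (12.07), Prm3 (11.56), Tnp2 (11.33) and Brdt, a bromodomain protein (11.19). Tnp2 was at 11.59, 11.77 and 12.02 in the 1-month mice, 11.76, 11.82 and 11.68 in the 6-month mice and 9.93 and 10.05 in the 12-month mice. Tnp1 was at 13.29 to 13.84 in the first 6 mice and 12.33 and 12.35 in the 12-month mice, while Prm1 ran the other way. Levels without the 12-month arrays were 11.77 for Tnp2 and 13.66 for Tnp1. In the tail list Odf2 of the dense fibres was at 13.79, below Gsg1, Odf1, Spata19 and Smcp, and Oaz3, an inhibitor of polyamine synthesis in spermatids, was at 13.66.

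The list of germ cell isoenzymes was brighter than that of body isoenzymes, with a median percentile of 98.03 (17 genes) against 83.7 (12 genes). The lists were not matched gene by gene. Members of the first such as Adam3, Hk1 and Cpt1b had no counterpart in the second. Beside Ldhc, Pgk2 and Cox8c in the germ cell list stood the glucose transporter Slc2a3 (13.41), Adam3, a sperm surface protein (13.17), and Pgam2 (13.01). Of the counterparts, Ldha, the common lactate dehydrogenase, was at 13.19, the ADP/ATP carrier Slc25a5 at 11.27, Gapdh at 11.16, Cox6b1 at 10.57, Cox8a at 10.42 and Aldoa at 10.40. Pgk1, the X-linked counterpart of Pgk2, was at 7.72, at background in all 8 mice.

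Somatic cells of the testis were represented by a few bright genes. In Sertoli cells the defensin Defb19 was at 13.18, clusterin (Clu) at 13.09, Aard at 12.72, the tight junction protein Cldn11 at 12.47, the anti-Müllerian hormone receptor Amhr2 at 12.09 and the gap junction protein Gja1 at 11.28. Of 36 Sertoli cell genes 31 (86.11%) lay above the dim limit, against 64.2% of all genes. Their median percentile was 72.22 (70.35 without the 12-month arrays). In Leydig cells Cyp17a1, which makes androgens from progestogens, was at 13.36, the hormone Insl3 at 12.55, Akr1cl at 11.72, the epoxide hydrolase Ephx1 at 11.39, the prostaglandin synthase Ptgds at 10.81 and Timp2 at 10.68. The Leydig list (23 genes, 19 above the dim limit) had a median percentile of 78.62. The kallikreins, a family of near-identical proteases whose probes may share signal, had 12 of 13 genes above the limit, led by Klk1b8 (12.68), Klk1b26 (10.87), Klk1b27 (10.36), Klk1b5 (10.05), Klk1b24 (9.46) and Klk1b9 (9.27).

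Of the smooth muscle list Actg2, the enteric actin, was at 13.12, Acta2 at 11.13, the kinase Mylk at 9.28, Tpm1 at 8.90, Tpm2 at 8.17 and Aoc3 at 8.16, while Tagln and Cnn1, other smooth muscle markers, were at 7.74 and 7.70. Of 16 endothelial genes 14 (87.5%) lay above the dim limit, against 64.2% of all genes. Their median percentile was 57.33, and none were in the brightest 5%. Egfl7 was highest at 8.61, then Sox17 (8.57), Vwf (8.29), Esam (8.17), Nos3 (8.11) and Sox18 (7.97). In the macrophage list Aif1 was at 11.86, followed by the lysozymes Lyz1 (10.57) and Lyz2 (9.05), whose probes may share signal, the mannose receptor Mrc1 (8.96), C1qb (8.56) and C1qc (8.30), and 13 of 16 members lay above the dim limit. Of MHC class II genes 5 of 11 (45.45%) lay above it, with H2-Ab1 at 8.64, H2-DMa at 8.59 and Cd74 at 8.25. Of MHC class I genes 14 of 20 (70%) did, with B2m, the light chain, at 10.51, Tapbp at 8.28 and H2-T23 at 8.08.

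Markers of tissues outside the testis lay at or near background, with a few exceptions. The median percentile was 28.92 for lymphocytes (3 of 14 above the dim limit), 34.88 for adipose tissue (6 of 13), 39.14 for epididymis (12 of 25), 39.15 for blood cells (5 of 11), 42.55 for liver (9 of 17), 27.44 for brain (6 of 16), 38.67 for skeletal and heart muscle (10 of 18) and 31.84 for eye and pancreas (7 of 21), each below the 54.4 of all genes. The exceptions that reached a level of 9 were Ptgds (10.81), which is in both the epididymis and the Leydig list, the haemoglobin chain Hba-a1 (10.39), Cd3d, a T cell receptor subunit, at 10.80 ± 0.09, Adipoq, the hormone adiponectin of fat cells, at 9.78 ± 0.14, and Wfdc10 of the epididymis at 9.32 ± 0.18 (pooled SD, n = 8 each). Cd3d lay between 10.56 and 11.11 and Adipoq between 9.51 and 10.11 in all 8 mice, while the next members of their lists were Cd8b1 (8.10) and Cd4 (7.96), and Cidea (8.40) and Lep (7.86). In liver genes Apoa2 (8.86), Serpina1b (8.07) and Fgg (7.89) were highest and albumin (Alb) was at 7.68. The highest in brain were Slc17a7 (7.94), Mbp (7.86) and Camk2a (7.84), in muscle Myl1 (8.28), Actn3 (8.03) and Myh6 (7.88), and in eye and pancreas Cela2a (8.08), Crygs (7.87) and Cela1 (7.81).

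Genes that handle acrylamide and oxidants differed widely in level. Cyp2e1, the cytochrome that oxidises acrylamide to glycidamide, was at 7.74, at the dim limit, and ran from 7.69 to 7.83 over the 8 mice. Ephx1, a hydrolase of epoxides, was at 11.39 ± 0.37, and Ephx2 at 7.84. Of 23 glutathione S-transferases, which bind electrophiles to glutathione, 21 (91.3%) lay above the dim limit, against 64.2% of all genes. The highest were Gstm5 at 14.01, Gstm2 at 13.39, Gsto2 at 12.44, Gstm1 at 12.42, Gsta3 at 10.97 and Gstt3 at 10.66. Probes of Gstm genes may share signal. Of 29 genes of oxidative defence 27 lay above it, led by the peroxiredoxin Prdx4 (13.02), Gpx4, the selenoperoxidase of the sperm midpiece (12.78), the superoxide dismutases Sod2 (12.36) and Sod1 (12.32), Txnrd3 (12.05) and Prdx1 (11.93). In base excision repair, which mends small base lesions, 19 of 23 lay above it, with Poll at 11.16, Parp1 at 10.79, Xrcc1 at 9.60, Polb at 9.59, Lig3 at 9.53 and Aptx at 9.51. Polb was at 9.68 to 9.98 in the 1-month and 6-month mice and 8.62 and 8.83 in the 12-month mice, with a level of 9.88 without the latest time.

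Protein turnover and folding genes were bright. In the cytosolic ribosome list 55 of 62 genes lay above the dim limit (median percentile 97.19), with Rps14 (13.74), Rpl38 (13.72) and Rps24 (13.56) after the 3 named above. In the proteasome list 30 of 32 did (94.19), led by Psmc2 (13.62), Psmc3 (12.85), Psme4, an activator cap used in spermatids (12.60), Psmd4 (12.54), Psma3 (12.28) and Psmb4 (11.93). Heat shock genes (22 of 23) were led by Hspa2, the constitutive Hspa8 (13.09), Dnajb13 of the radial spoke (12.87), Hspa1l, Dnajb3 (12.52) and Dnajb1 (12.48), and the stress-induced Hspa1a was at 7.80. Of hormone receptors 13 of 21 (61.9%) lay above the limit, near the 64.2% of all genes. The highest were Adipor1 (10.55), Adipor2 (9.50), Rxrb (9.50), Rxra (8.44), Vdr (8.11) and Fshr (8.02). Of immediate early genes 19 of 27 (70.37%) lay above the limit, with Ccn2 (10.06), Klf4 (9.36), Klf2 (9.04), Jund (8.82), Egr1 (8.76) and Dusp1 (8.69), and Fos at 7.80.

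Of 518 list members above the dim limit, 48 had a level that differed by more than 0.2 without the 12-month arrays, and 36 of these were lower with those arrays. The same was not counted over all genes above the limit. The counts therefore do not show that list members moved more than other genes, or more often downward. Among germ cell genes named above, levels without the 12-month arrays were 13.92 for Oaz3, 13.28 for Pgam2, 13.03 for Gpx4 and 12.28 for H1f7. The Leydig cell genes Insl3 and Ephx1 were at 12.32 and 11.13 without them, both below their level over 8 mice, as were Klk1b27 (10.16), Cox6b1 (10.35), Mylk (9.06) and Lyz2 (8.82). Levels without the 12-month arrays were higher for Sod2 (12.57), Cypt1 (11.68), Aldoa (10.65), Ssty2 (10.39), Aptx (9.75), Klf4 (9.62) and Klk1b9 (9.55).

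The X chromosome held fewer of the brightest genes than the autosomes. Of 609 X-linked genes 22 (3.612%) were in the brightest 5% of probes, against 6.561% of 15958 autosomal genes, and 60.1% against 64.34% lay above the dim limit. These shares describe this array, and genes of a chromosome are not independent. The X chromosome is silenced in meiosis, and many of its bright genes here are known from spermatids: H2al1e (13.94), Tsga8 (13.44), Cypt3, a nuclear protein of spermatids (13.11), the histone variant H2al1m (13.08) and Akap4, the scaffold of the fibrous sheath (13.07). Prdx4 is X-linked too. In the list of X-linked genes used by germ cells, 23 of 27 lay above the dim limit, and Cypt1 (11.41), Tex13a (11.37) and Actrt1 (10.56) followed. On the Y chromosome 11 of 15 genes lay above the limit and 4 (26.67%) in the brightest 5%, which were Gm20815 (12.87), Gm20738 (11.90), Gm21943 (11.25) and Gm20747 (11.15), predicted genes named after their values were seen. Of the genes with a given name, Ssty2, a gene of spermatids present in many copies, was at 10.14 ± 0.19, Sly at 8.99 ± 0.24 and Usp9y at 8.55 ± 0.16, while Sry was at 7.70. Xist, the RNA of the inactive X, was at 7.74.

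Spread between untreated mice was small for most genes on the processed scale. Among the 15418 probes above the dim limit the SD pooled within times (5 degrees of freedom) had a median of 0.07375, or 1.052-fold, a 95th percentile of 0.1966 and a 99th of 0.307, or 1.237-fold. It grew with level, with a median of 0.03851 in the dimmest of 10 equal bins of these probes, 0.1288 in bin 9 and 0.1185 in the brightest bin. Across these probes Spearman's rho between SD and level was 0.7233, a description only, since dim probes are compressed. Mice of a time differed by 0.5 or more in 744 probes (4.826%), by 1 or more in 72 and by 2 or more in 9. Ranks were stable at the top, where 171 of the 257 probes of the brightest 1% and 986 of the 1285 of the brightest 5% were so in every control array.

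**Figure D3:**
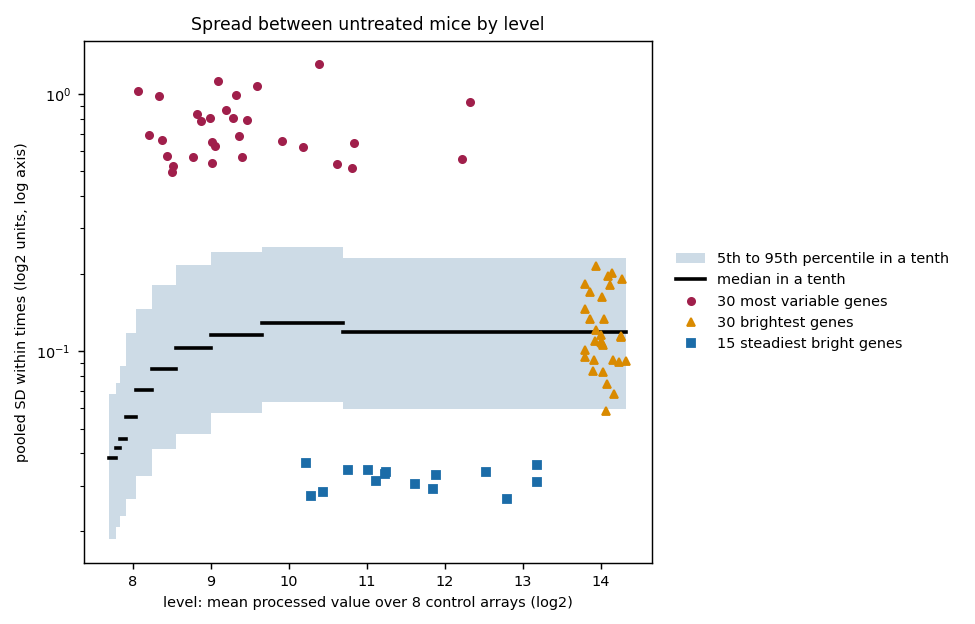
SD pooled within times (log2 units, log axis) against level (log2) in the 8 control mice: median (bars) and range from the 5th to the 95th percentile (shading) in each of 10 equal bins of the probes above the dim limit, with the genes chosen for brightness, spread or steadiness as points. The 30 most variable genes have SDs of 0.50 to 1.30 and the 15 steadiest bright genes of 0.027 to 0.037, both by choice.

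The 30 genes with the largest SD were chosen by that value, so it is a description, and their values by mouse follow. Hba-a1, a haemoglobin chain of red blood cells, was at 9.49, 12.45 and 9.22 in the 1-month mice, 9.64, 10.61 and 10.25 in the 6-month mice and 11.61 and 9.83 in the 12-month mice (SD 1.30, and 0.72 without 1-month mouse 2). It was highest in 1-month mouse 2 and 12-month mouse 1. Of the 5 blood cell genes above the dim limit, 4 were highest in mouse 2 among the 1-month mice, against 37.0% of all genes above it. Hbb-bt was at 8.45 and Hbb-b2 at 8.15 in 1-month mouse 2, the highest of the 8 mice for both, and at 7.70 and 7.89 in 12-month mouse 1. The erythroid gene Alas2 was at 8.70 in 1-month mouse 2 and at 8.32 to 8.50 in the others. The mean over the 11 blood cell genes was 8.36 in 1-month mouse 2 and 7.95 to 8.18 in the other 7. In 1-month mouse 2 Slc4a1, another red cell marker, was at 7.70 and the neutrophil markers S100a8 and S100a9 at 7.62 and 7.66. Differences among such dim probes are compressed. The part of blood in these differences was not tested.

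**Figure D4:**
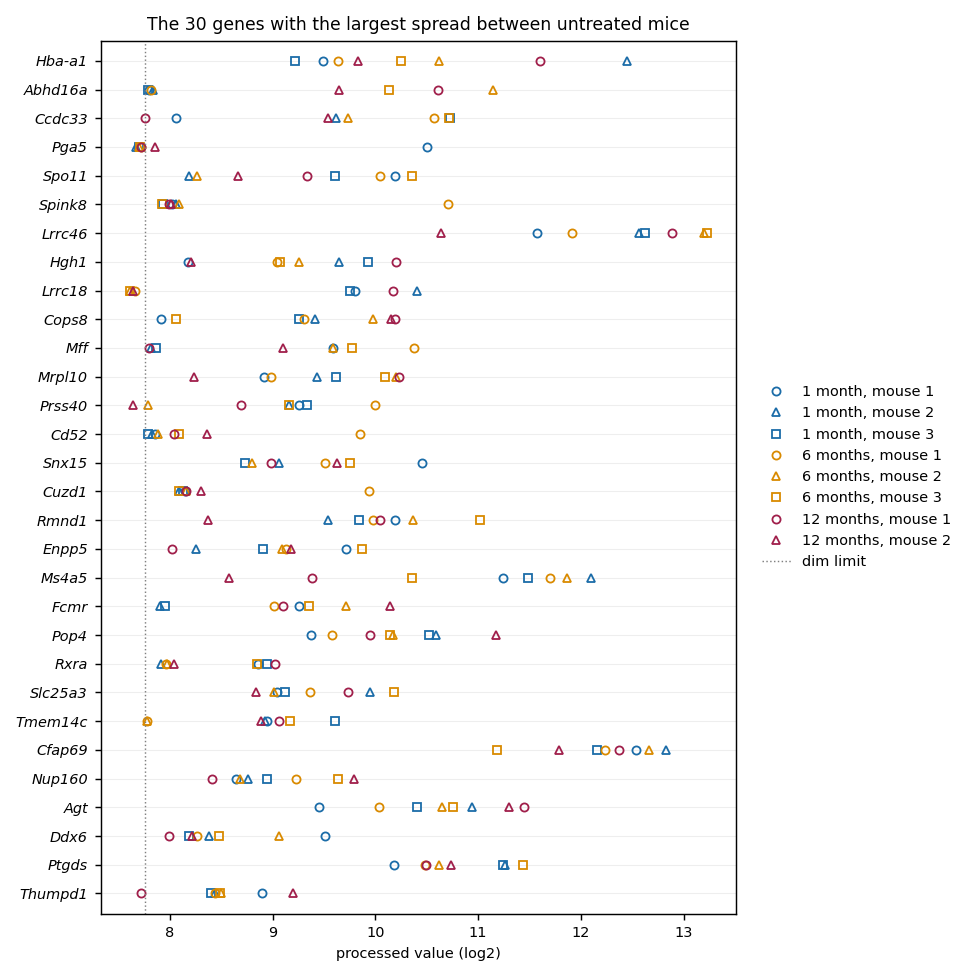
Processed log2 values (horizontal axis) of the 30 genes with the largest spread, largest at the top, 1 point for each of the 8 control mice, coloured by time, with the dim limit as a dotted line. Pga5, Spink8, Cd52 and Cuzd1 are high in 1 mouse each, and Abhd16a and Lrrc18 fall into a low and a high set of mice.

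Several genes were high in 6-month mouse 1 alone, among them some known from the epididymis, the duct that stores sperm. Spink8, a protease inhibitor of that duct, was at 10.70 in 6-month mouse 1 and at 7.93 to 8.09 in the other 7 mice (SD 0.99, and 0.073 without that mouse). Cuzd1 was at 9.94 there against 8.09 to 8.30 elsewhere (SD 0.66, 0.062 without it), and Cd52, a surface glycoprotein of sperm and lymphocytes, at 9.85 against 7.78 to 8.37 (SD 0.69, 0.14 without it). In the epididymis list Wfdc15b was at 8.78 in that mouse against 7.66 to 7.85, and Adam7 at 8.35 against 7.63 to 7.72. The mean of the 25 listed genes was 8.17 in 6-month mouse 1 and 7.93 to 8.00 in the others. It includes Spink8, Wfdc15b and Adam7 and was not computed without them. Of the 12 listed genes above the dim limit, 6 were highest in mouse 1 among the 6-month mice, against 33.7% of all genes above it. Mouse 2 was highest in 5. At 12 months 11 of the 12 were highest in mouse 2, against 49.45% of all genes above the limit. Over all 8 mice, 2 of the 12 were highest in 6-month mouse 1 and 4 in 12-month mouse 2. Defining markers of the list were under the dim limit in 6-month mouse 1, such as Gpx5 (7.74), Lcn5 (7.75), Lcn9 (7.72) and Crisp4 (7.74). Their part in these differences was not tested. The mean of the 14 lymphocyte genes was 8.01 in 6-month mouse 1 and 7.95 to 8.00 in the others.

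Single high values stood in other mice. Pga5, a pepsinogen known from the stomach, was at 10.51 in 1-month mouse 1 and at 7.67 to 7.85 in the other 7 (SD 1.03, and 0.050 without that mouse). In the liver list Mup2, a urinary protein made by liver, was at 9.05 in 1-month mouse 3 and 7.63 to 7.80 in the others, while Alb was at 7.69 and Apoa1 at 7.79 in that mouse. Of the 9 liver genes above the dim limit, 7 were highest in mouse 3 among the 1-month mice, against 30.6% of all genes above it. The mean of the 17 liver genes, Mup2 among them, was 7.94 in that mouse and 7.80 to 7.87 in the other 7. It was not computed without Mup2, and the part of liver RNA in this was not tested. H2-Ab1 was at 9.27, 8.21 and 9.40 in the 1-month mice, 8.22, 8.43 and 8.63 in the 6-month mice and 8.69 and 8.29 in the 12-month mice (SD 0.45). Its partner chain H2-Aa lay between 7.69 and 7.91, near background. Cd74, which escorts class II molecules, was at 7.96, 7.98 and 8.00 in the 1-month mice. All 5 class II genes above the dim limit were highest in mouse 3 among the 1-month mice, against 30.6% of all genes above it. Of the 5, 4 were lowest in mouse 1, against 34.47% of all genes above the limit, while H2-Ab1 was at 9.27 there. Differences between probes near the dim limit are compressed. The mean of the 11 class II genes was 8.02 in 1-month mouse 3, against 7.94 and 7.92 in 1-month mice 1 and 2.

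Some genes had only low and high values. Abhd16a, a lipase of the MHC region, was at 7.78 to 7.84 in the 1-month mice and 6-month mouse 1, and at 11.14, 10.13, 10.61 and 9.65 in the other 4 (SD 1.12, and 0.49 without 6-month mouse 1). Lrrc18, a leucine-rich repeat gene of the testis, was at 9.80, 10.41 and 9.75 in the 1-month mice and 10.17 in 12-month mouse 1, and at 7.61 to 7.66 in the other 4 mice. Its SD was 0.83, and 0.26 without either 12-month mouse. Mff, the mitochondrial fission factor, was at 7.80 to 7.87 in 1-month mice 2 and 3 and 12-month mouse 1 and at 9.10 to 10.37 in the others, while another of its probes stayed between 8.13 and 8.60. Tmem14c was at 7.78 in 6-month mice 1 and 2 and at 8.89 to 9.61 in the others, and its other probes lay between 8.38 and 9.19. Cops8, a subunit of the COP9 signalosome, was at 7.91 and 8.06 in 1-month mouse 1 and 6-month mouse 3 and at 9.26 to 10.19 in the others. Of the 30 genes, 14 had an array under 8 and another above 9, against 0.214% of the kept probes, and the choice by spread favours such genes.

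Other genes among the 30 showed either kind of pattern. Ccdc33, a coiled-coil gene, was at 8.06, 9.62 and 10.72 in the 1-month mice, 10.57, 9.73 and 10.71 in the 6-month mice and 7.76 and 9.54 in the 12-month mice (SD 1.07). Ms4a5 was at 10.36 to 12.10 in the first 6 mice and 9.38 and 8.58 in the 12-month mice (SD 0.65, 0.43 without 6-month mouse 3). Cfap69, a protein of the sperm flagellum, ran from 11.18 in 6-month mouse 3 to 12.82 in 1-month mouse 2 (SD 0.56, 0.35 without 6-month mouse 3), and its other probe was also highest in 1-month mouse 2. Prss40, a serine protease of sperm, was at 7.78 in 6-month mouse 2 and 7.64 in 12-month mouse 2 and at 8.69 to 9.99 in the others (SD 0.78, 0.48 without 6-month mouse 2). The others among the 30 were Hgh1 (SD 0.87), Snx15 (0.69), Rmnd1 (0.66), Enpp5 (0.65), Fcmr (0.63), Pop4 (0.62), the retinoid receptor Rxra (0.57), the phosphate carrier Slc25a3 (0.57), the nuclear pore protein Nup160 (0.54), angiotensinogen (Agt, 0.54), the helicase Ddx6 (0.53), Ptgds (0.52) and Thumpd1 (0.50). For 17 of the 30 the SD changed by more than 1.5 times without a single mouse. Beyond the genes given above, these were Snx15 (0.43), Agt (0.33) and Ddx6 (0.31) without 1-month mouse 1, Tmem14c (0.28) without 6-month mouse 3, and Rmnd1 (0.44), Nup160 (0.35) and Thumpd1 (0.20) without either 12-month mouse.

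Lrrc46 and Mrpl10, which lie on chromosome 11 with 1 annotated gene between them, varied together. Lrrc46 was at 11.57, 12.57 and 12.62 in the 1-month mice, 11.92, 13.20 and 13.23 in the 6-month mice and 12.88 and 10.63 in the 12-month mice. Mrpl10, a mitochondrial ribosomal protein, was at 8.91, 9.43 and 9.62, then 8.98, 10.20 and 10.10, then 10.23 and 8.24 in the same mice. The 5 lowest mice came in the same order for both genes, from 12-month mouse 2 up to 1-month mouse 3. Another probe of Mrpl10 ran the other way, with its highest value, 10.98, in 12-month mouse 2 and its lowest, 10.02, in 6-month mouse 2. Spo11 showed the same kind of contrast, since its variable probe was high in 1-month mouse 1, 6-month mouse 1 and 6-month mouse 3 (10.19, 10.04 and 10.35), where its brighter probe was low (10.95, 10.92 and 10.88). In 6-month mouse 2 the variable Spo11 probe was at 8.26 and the brighter one at 11.66. Of the 155 probes with the largest 1% of SDs, 51 had another probe of their gene above the dim limit, and for 31 of these (60.78%) the other probe was in the top 5%, while for 4 it was below the median.

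The steadiest bright genes had SDs of 0.027 to 0.037, again by choice. Ldha lay between 13.12 and 13.24 in all 8 mice and was at 13.19 ± 0.03. Stag3, the meiotic cohesin, was at 12.53 ± 0.03, the helicase Ddx1 at 11.12 and the phosphatase Ppm1a at 11.24. Jpt1 was at 12.66 to 12.73 in the 1-month and 6-month mice and 13.06 in both 12-month mice, so a gene steady within a time could still differ between times. Exd2 (10.28), Gnl3 (10.44), Bbof1 (11.85), Ms4a13 (11.61), the ribosomal Rpl23a (11.89), Elp5 (11.25), Tram1 (10.76), Hacd1 (11.02), the dynactin subunit Dctn2 (13.18) and Bola3 (10.22) completed the 15.

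Leydig cell genes had a larger median SD than all genes, as did several other lists. Of the 4 Leydig cell genes described here, 3 took the same order in the mice of each time. Cyp17a1 was at 13.16, 13.63 and 13.53 in the 1-month mice, 12.89, 13.06 and 13.33 in the 6-month mice and 13.62 and 13.69 in the 12-month mice (SD 0.21). Ephx1 was at 10.58, 11.47 and 11.09, then 10.88, 11.17 and 11.57, then 12.03 and 12.34 in the same mice (SD 0.37). Ptgds was at 10.18, 11.26 and 11.25, then 10.48, 10.62 and 11.43, then 10.49 and 10.74 (SD 0.52). In all 3 genes 1-month mouse 1 was the lowest of its time and 6-month mouse 3 the highest. Cyp11a1, which begins steroid synthesis, was at 8.65, 9.36 and 9.37 and then 8.72, 8.33 and 9.01 in the mice of the first times (SD 0.37). Of the 19 Leydig genes above the dim limit, 13 were highest in mouse 2 among the 1-month mice, against 37.0% of all genes above the limit, and 14 were highest in mouse 3 among the 6-month mice, against 31.8%. The full order of the 3 genes was not that of the list. Mouse 1 was lowest in 12 of the 19 at 1 month, but at 6 months mice 1 and 2 were each lowest in 9. At 12 months mouse 1 was highest in 9 and mouse 2 in 10. Of 31 Sertoli cell genes 22 were also highest in mouse 2 at 1 month, as were 35 of 55 ribosomal genes, and 31 of 55 ribosomal genes were highest in mouse 1 at 6 months. These lists and mice were picked after the values were seen, and genes of a list share the mouse and the array. The counts therefore describe these mice and are no test. The median SD of members above the dim limit was 0.1326 for Leydig cells, 0.1564 for kallikreins, 0.1044 for Sertoli cells, 0.108 for tail genes, 0.05456 for spermatogonia and 0.07768 for all genes. It was 0.1501 for blood cells, 0.1315 for germ cell isoenzymes, 0.1264 for round spermatids and 0.1253 for the cytosolic ribosome. Since SDs grew with level, lists of unlike level are not like comparisons.

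In other lists the largest SDs were those of Klhl10, a ubiquitin ligase adaptor of spermatids (0.36), Spata16 of the acrosome (0.39), the PIWI protein Piwil1 (0.31), Syce2 (0.31), Id4 (0.28), Ropn1 of the fibrous sheath (0.25), Gstm1 (0.29), Klk1b27 (0.26), Srxn1 (0.27), Egr1 (0.29), Hspd1 (0.23), B2m (0.24) and the X-linked Ott (0.27). Klhl10 was at 12.01 to 12.46 in 7 mice and at 10.95 in 12-month mouse 2. Spata16 was at 9.47 in 6-month mouse 1 and at 10.51 to 10.62 in the other mice of 1 and 6 months, and at 8.61 and 8.81 at 12 months. In 6-month mouse 1 Syce2 (10.16), Id4 (9.74) and Ropn1 (12.09) were each higher than in all other controls.

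The spread between mice within control groups was set against that within acrylamide groups, a comparison that leaves out the differences between groups. A group's spread was the median absolute log2 difference over probes above the dim limit, averaged over its pairs of arrays. It was 0.06119, 0.07151 and 0.09016 in controls of 1, 6 and 12 months and ran from 0.06395 to 0.2284 in 13 acrylamide groups. The mean over the 3 times was 0.07429 for controls. It was 0.09305 for acrylamide, where the groups of a time were averaged first and each time weighed the same. The difference was -0.01876, and the two-sided exact permutation test over groups within times gave p = 0.2847. Its 144 assignments can give no p below 0.006944. The largest spread belonged to the group of 0.001 µg/ml at 1 month, whose replicate 3 stands apart from all other arrays. Without that array the difference was -0.007319 (exact permutation p = 0.4097).

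**Figure D5:**
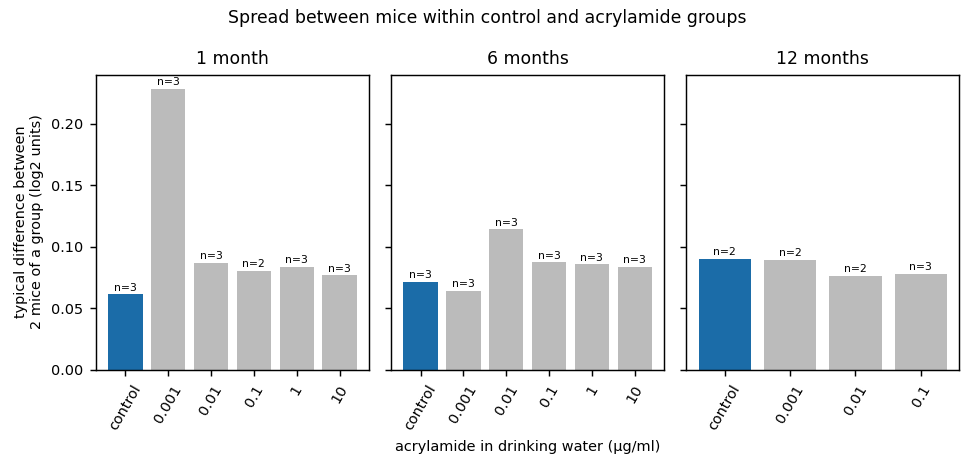
Median absolute log2 difference between 2 mice of a group (vertical axis) in the control group (blue) and the acrylamide groups (grey, dose in µg/ml) of each time, with the number of arrays above each bar. The control groups stand at 0.06119, 0.07151 and 0.09016, and 0.001 µg/ml at 1 month at 0.2284.

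Genes that varied among untreated mice also varied among treated mice, which the choice of genes had not used. Of the 30 most variable genes, 28 had an SD among acrylamide mice at or above the 95th percentile of the probes above the dim limit, against 5.00% of those probes, and 18 reached the 99th, against 1.01%. Without the array that stands apart these counts were 30 and 27. Across those probes Spearman's rho between the SD in controls and in acrylamide mice was 0.6848, and 0.7643 without that array, and both SDs are larger for brighter probes. The median SD was 0.07375 in controls (5 degrees of freedom) and 0.1208 in acrylamide mice (23), or 0.09251 without the array apart (22). Abhd16a averaged 9.10 in control mice and 10.32 in acrylamide mice, Lrrc18 8.83 and 9.51, and Hba-a1 10.39 and 10.45, without a test here. Across all probes Spearman's rho between the levels of control and acrylamide mice was 0.982.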

How the data were processed

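The deposited values of the 46 arrays are the authors' processed log2 values, made with lumi per the submitters' processing notes; no setting or version of it is known from the labels. All columns share 1 distribution. The deposited non-normalized intensities were used for 7 control columns, and 39 further columns were not used. Only those of 1-month mice 2 and 3 follow the probe order, so the others gave medians alone (124.3 to 214.3 over the 7). Probes were named from the platform annotation: 23978 of 25697 had 1 symbol, 0 had several and 1719 had none. The number of arrays limits the precision.

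The spread was the SD pooled within times. Named genes were the 30 brightest, the 30 most variable, the 15 steadiest among the brightest 10% of probes, and in each of 35 lists up to 6 of the highest level and 3 of the largest SD; unnamed transcripts were skipped. Other genes were named after their values were seen. Ddx3y was not found by symbol. The members, lists and rules were chosen with earlier results of these data known. The 1 test used was an exact permutation test, two-sided, over groups within times, tested on simulated data; 2 acrylamide arrays alone in their group entered no spread. Alternatives were other dim limits, other measures of spread, the intensities, the median over probes and leaving out arrays. Python 3.11.15, numpy 2.4.6, pandas 2.3.3, scipy 1.17.1 and matplotlib 3.10.9 were used.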

Additional observations from a re-analysis of the deposited data

Results flagged for a closer look

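For each of the 30 brightest genes, the 30 most variable genes and the 35 list means, the gap between the highest or lowest of the 8 control mice and its nearest neighbour was divided by the whole range. The ratio passed the limit of 0.526 for 8 samples in 10 of 95 values, where chance alone gives about 1 in 20, and the most variable genes were chosen for their spread. Times were pooled for this.

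In 1-month mouse 1 the spermatid gene Gsg1 was at 13.81, with the next mouse at 14.25. Rpl41 was at 13.67 there, with the next at 14.09, and Rsph1 of the radial spoke at 13.72, also with the next at 14.09. Ppp1r11 was at 14.15 in the same mouse, above the next at 13.80, and Pga5 at 10.51, above the next at 7.85. All of these but Ppp1r11 and Pga5 were low values.

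In 6-month mouse 1 Spink8 was at 10.70 with the next mouse at 8.09, Cuzd1 at 9.94 with the next at 8.30 and Cd52 at 9.85 with the next at 8.37. The mean of the epididymis list, to which Spink8 belongs, was 8.17 in that mouse with the next at 8.00. The mean of the immediate early genes was lowest in 12-month mouse 1, at 8.11 with the next at 8.15, a gap of a few hundredths of a log2 unit.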

How the results depend on the processing

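The median SD of 0.07375 between control mice moved with its definition. It was 0.04867 with no filter on dim probes, 0.09719 with the dimmest 60% left out, 0.1058 as an SD over all 8 arrays around 1 mean, and 0.04345 as a mean absolute deviation. In 1-month mice 2 and 3 alone it was 0.04344 on processed values and 0.07701 on log2 intensities, and without both 12-month arrays 0.06641. Leaving out 1 mouse gave 0.06641 to 0.07542, kept 26 to 29 of the 30 brightest and 24 to 29 of the 30 most variable genes, and left 21 to 22 of 35 list medians above that of all genes (21 with all mice). Of the 30 most variable genes 13 remained with 1 mean for all times, 6 on the intensities of 2 mice and 9 on their processed values. Of the 30 brightest, 21 remained on those intensities, 22 on the processed values of the same mice, and 24 with the median over probes, by which Tcte3 was at 11.03, Dnaaf1 at 11.27 and Morf4l1 at 11.44. The difference in spread between control and acrylamide groups, -0.01876, ran from -0.03265 to -0.01718 (exact permutation p 0.2222 to 0.3194) without 1 control mouse, and no setting tried reached 0.05. Without either 12-month mouse no 12-month control pair remained. Leaving out both 12-month arrays, the processed values of 2 mice and a root mean square without the acrylamide array apart (-0.01134, exact permutation p = 0.5278) were chosen after seeing the data. No paired analysis was possible because the replicate numbers only name mice and no test set control mice against mice sharing a number. Low signal limits the order of genes near the dim limit, and 2 to 3 mice per time limit every SD.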
